A study of Mus musculus with 10 samples.

Results

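The 31 genes described here act in the synthesis of sterols and fatty acids or its control, or, as Stard4, Fabp5 and Mfsd2a, carry or bind lipids. They were matched by symbol among 31053 listed genes and split into 18 genes of the sterol branch and 13 of the fatty acid branch. Their levels were read in alveolar cells of mouse distal lung, after cells with a UMI of Ptprc, the pan-leukocyte gene, were set aside. All mice carried Sftpc-CreERT2, a tamoxifen-dependent Cre driven from the gene of surfactant protein C in alveolar type II (AT2) cells, and all received 3 doses of 0.2 mg tamoxifen per gram of body weight. In Sftpc-CreERT2; Red2Kras mice, recombination to RFP also switched on the mutant allele of the line, so that RFP+ cells were mutant and YFP+ cells of the same line were wildtype. In Sftpc-CreERT2; R26R-Confetti mice both colours were wildtype. The 10 libraries fell into 6 groups, with 1 library for each colour of Confetti and 2 libraries for each colour of Red2Kras at either time, 4 days or 2 weeks after induction. Below, 4 days RFP 1 stands for replicate 1 of RFP at 4 days, and so on. The labels give no time for the Confetti libraries, which the methods of the study place at 2 weeks. Those methods also state that Red2Kras mice at 4 days were taken before tamoxifen had fully washed out. Time after induction and exposure to tamoxifen therefore cannot be told apart in comparisons of 4 days with 2 weeks or Confetti. Cells were EpCAM+ sorted from a minimum of 2 pooled lungs, and no label says that the replicates came from separate sets of mice, so that p-values measure the spread between these libraries.

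The sterol branch turns acetyl-CoA into mevalonate, isoprenoids, squalene and cholesterol, and the fatty acid branch builds saturated chains from malonyl-CoA and then desaturates or elongates them. SREBP transcription factors, the products of Srebf2 and Srebf1, switch on many of these genes when sterols in the endoplasmic reticulum are low, and Insig1 holds SREBPs back in that membrane. AT2 cells make the phospholipids and cholesterol of pulmonary surfactant and are known for high lipogenic gene expression.

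The 250 bases upstream of the RefSeq start sites were read for the members with an entry in the promoter table (GRCm38.p6), which gave 17 promoters of 14 sterol genes and 14 promoters of 10 fatty acid genes. Fdps, Fdft1, Sqle, Stard4, Scd1, Scd2 and Fabp5 had no entry. Both strands were searched for TCACNCCAC, a sterol regulatory element, for CACGTG, an E-box, and for CCAAT, the core of the NF-Y box. CCAAT or its complement ATTGG stood in 14 of the 17 sterol promoters, with all 14 genes holding it in at least 1 promoter, and in 8 of the 14 fatty acid promoters, while 33.8% of 32851 promoters of the same length held it. CACGTG stood in 4 sterol promoters (Dhcr7, Hsd17b7, Insig1 and Sc5d) and 1 fatty acid promoter (Elovl5), against 6.02% of all promoters. TCACNCCAC stood in the Hmgcs1 promoter only among the members' promoters searched, at bases -137 to -129 from the start site, against 1.05% of all. These matches are descriptions of the windows and not of binding. The windows of 5 members are printed to show the branches side by side: Hmgcs1 and Mvk from the first steps of the sterol branch, Nsdhl from its late steps, and Fasn and Mfsd2a from the fatty acid branch. Capitals mark the motif matches, which in Fasn include a CCAAT and an ATTGG that share 2 bases.
Hmgcs1 (chr13:119690101-119690350, plus strand): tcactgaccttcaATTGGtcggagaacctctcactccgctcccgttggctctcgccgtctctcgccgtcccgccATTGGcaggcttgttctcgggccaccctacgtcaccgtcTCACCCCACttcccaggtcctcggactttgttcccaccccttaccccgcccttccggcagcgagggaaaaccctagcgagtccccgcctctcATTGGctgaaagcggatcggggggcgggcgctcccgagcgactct
Mvk (chr5:114444019-114444268, plus strand): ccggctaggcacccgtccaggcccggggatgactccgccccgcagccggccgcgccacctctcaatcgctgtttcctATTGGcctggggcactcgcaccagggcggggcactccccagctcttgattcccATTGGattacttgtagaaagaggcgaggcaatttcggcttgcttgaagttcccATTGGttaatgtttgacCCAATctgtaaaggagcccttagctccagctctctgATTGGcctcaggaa
Nsdhl (chrX:72918271-72918520, plus strand): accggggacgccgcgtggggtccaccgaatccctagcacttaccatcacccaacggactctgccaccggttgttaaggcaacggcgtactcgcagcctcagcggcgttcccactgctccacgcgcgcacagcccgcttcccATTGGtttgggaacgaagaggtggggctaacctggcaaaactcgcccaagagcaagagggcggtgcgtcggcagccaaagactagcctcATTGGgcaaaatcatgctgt
Fasn (chr11:120824548-120824797, minus strand): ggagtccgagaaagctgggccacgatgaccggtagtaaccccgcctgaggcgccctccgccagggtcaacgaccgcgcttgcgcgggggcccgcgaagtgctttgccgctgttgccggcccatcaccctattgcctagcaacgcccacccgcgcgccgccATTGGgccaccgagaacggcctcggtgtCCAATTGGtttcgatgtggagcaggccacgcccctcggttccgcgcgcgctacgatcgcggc
Mfsd2a (chr4:122961189-122961438, minus strand): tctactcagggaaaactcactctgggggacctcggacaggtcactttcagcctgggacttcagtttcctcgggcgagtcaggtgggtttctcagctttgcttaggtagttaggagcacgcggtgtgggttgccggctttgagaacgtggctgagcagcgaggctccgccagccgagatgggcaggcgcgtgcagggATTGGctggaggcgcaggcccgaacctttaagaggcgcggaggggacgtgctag

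Of 42012 barcodes, 32698 passed the cell filters and 30599 of these had no Ptprc UMI, between 1138 and 4306 per library. Their UMIs, the counted transcript molecules, summed to between 7981577 and 69880989 per library. The median UMIs per cell were 15339 and 12879 in the 2 libraries of 2 weeks RFP and lay between 3127 and 6415.5 in the others, so depth moves with that group. AT2 markers were high in all 10 libraries, with a sum over 9 markers between 89182 and 224466 CPM, counts scaled to the size of the library, lowest in 4 days RFP 2. Of 12 immune markers, Ptprc at 0 by the choice of cells, the 11 measured still summed to 1182 CPM in 2 weeks YFP 2 and 637 CPM in 4 days RFP 2, against 26.1 to 140.5 CPM in the other 8. The summed levels of 3 airway secretory markers ranged from 319.6 CPM in 2 weeks RFP 1 to 17233 CPM in 2 weeks YFP 2. A UMI of Cldn4, a marker of the transitional state, was present in 430 of 1579 cells of 4 days RFP 2 but in 144 of 3801 cells of 4 days RFP 1. The Confetti libraries held 12117 and 10452 UMIs of Xist and no more than 2 UMIs of any of 4 Y-linked genes, replicate 2 of each Red2Kras group held 2 to 10 Xist UMIs, and replicate 1 of each held UMIs of both, so sex of the mice moves with genotype and with replicate number. The median share of mitochondrial UMIs per cell was 4.17% and 3.69% in Confetti, and it was lower in RFP than in YFP in all 4 same-number pairs: 2.97% against 3.66%, 1.4% against 2.09%, 2.44% against 2.61% and 1.99% against 2.2%. Pairs of libraries shared between 0 and 11 cell barcodes. The part of depth, mitochondrial share, sex and other cell types in the results below was not tested beyond the settings named.

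The first comparison asked how mutant RFP+ cells differed from wildtype YFP+ cells of Red2Kras lungs over both times. In levels scaled as CPM with TMM factors, 30 of the 31 members were lower in RFP, all 18 of the sterol branch and 12 of 13 of the fatty acid branch, with 53.7% of all genes lower. The median log2 fold change was -0.70 in the sterol branch and -0.72 in the fatty acid branch, with -0.04 over all 14022 genes tested. Markers moved alongside: all 9 AT2 markers (median -0.67) and all 10 immune markers tested (median -1.14) were lower in RFP. All 5 markers of the transitional state (median 1.94) and all 4 cycling markers (median 0.73) were higher, though the RFP and YFP libraries overlapped for every cycling marker. No member passed an adjusted p of 0.05 in edgeR's quasi-likelihood test, nor did any gene (0% called higher, 0% called lower), and the smallest adjusted p of a member was 0.187. At an unadjusted p under 0.05, 16 of 18 sterol genes and 10 of 13 fatty acid genes were lower and none was higher, against 7.2% of all genes lower and 8.53% higher. The 4 RFP libraries lay wholly below the 4 YFP libraries for 6 sterol genes (Idi1, Fdps, Lss, Msmo1, Nsdhl and Dhcr7) and 5 fatty acid genes (Srebf1, Fasn, Scd1, Scd2 and Fabp5), against 3.57% of all genes. Within the same time and replicate number, RFP was below YFP in all 4 pairs for 17 of 18 and 10 of 13 members, against 16.2% of all genes. With DESeq2 in place of edgeR 15 members passed, all lower, with 5.61% of the genes it tested called.

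**Figure D1:**
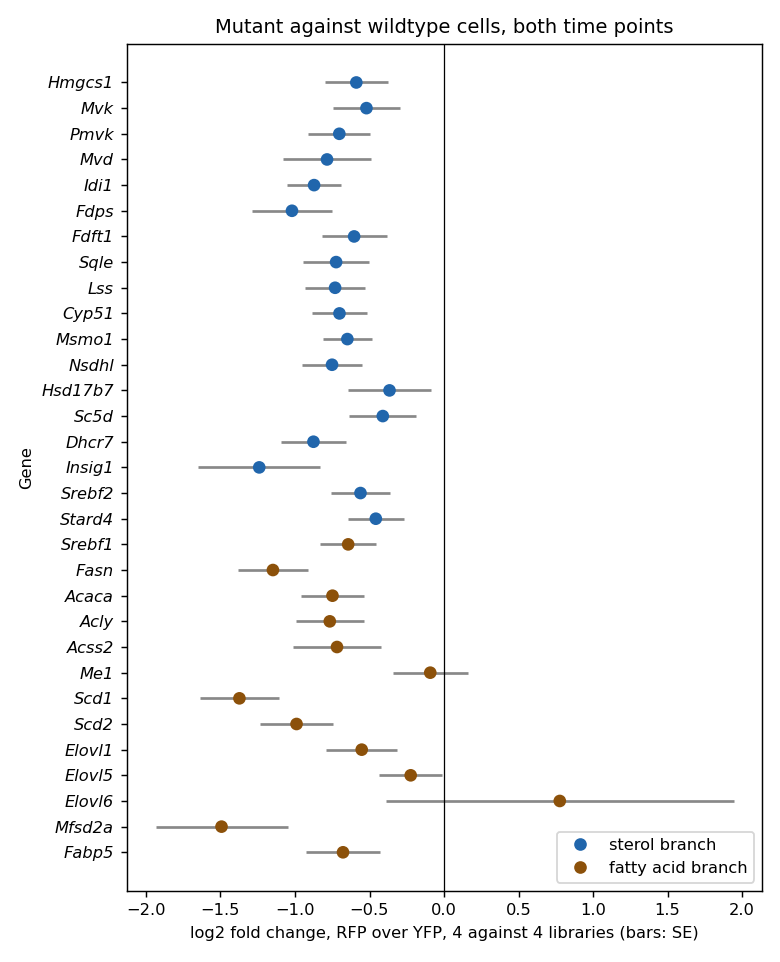
Each point is the log2 fold change of 1 member, RFP over YFP, over both times (4 against 4 Red2Kras libraries). Each bar is the standard error of that value, derived from edgeR's F statistic. All members except Elovl6 sit left of 0, with medians of -0.70 in the sterol branch (blue) and -0.72 in the fatty acid branch (brown); the position of Elovl6 rests on 143 UMIs in all.

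In the sterol branch the 5 genes with the smallest unadjusted p came from the isoprenoid and late steps. Idi1 (GRCm38 chr13:8885501-8892451, plus strand), the isomerase that interconverts the isoprenoid building blocks, measured 65.4 and 55.7 CPM in the 2 libraries of 4 days RFP and 82.6 and 59.3 in those of 2 weeks RFP, against 97.6 and 127 in 4 days YFP, 114 and 134 in 2 weeks YFP and 104 and 96.8 in Confetti RFP and YFP. The RFP libraries averaged 65.7 ± 11.9 CPM (SD, n = 4) and the YFP libraries 118 ± 15.99 (SD, n = 4), with no overlap. The log2 fold change was -0.87 ± 0.18 (SE, adjusted p = 0.187). Every RFP library also lay below both Confetti libraries.

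Fdps (chr3:89093588-89101959, minus strand), which makes farnesyl diphosphate, stood at 156 and 180.2 CPM in 4 days RFP and 172 and 196 in 2 weeks RFP. It stood higher in 2 weeks YFP, at 273 and 519, and in 4 days YFP, at 224 and 395, with 218 and 186 in Confetti. Its RFP mean was 176 ± 16.8 CPM and its YFP mean 353 ± 132 CPM (SD, n = 4 each), and their log2 difference -1.02 ± 0.27 (SE, adjusted p = 0.187). The replicate 2 libraries of YFP were the highest. Confetti YFP lay within the range of the RFP libraries, and Confetti RFP lay above them and below all YFP libraries. A predicted gene, Gm43738, overlaps Fdps on the same strand, so its counts are less certain than those of the other members, for which no such overlap was listed.

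Msmo1 (chr8:64718139-64733792, minus strand), a sterol-C4-methyl oxidase, was found at 40.0 and 50.8 CPM in 4 days RFP, 61.8 and 61.1 in 2 weeks RFP, 66.2 and 77.2 in 4 days YFP, 79.7 and 105 in 2 weeks YFP and 74.6 and 71.4 in Confetti. Its log2 fold change was -0.65 ± 0.16 (SE, adjusted p = 0.187), from means of 53.4 ± 10.3 and 82.0 ± 16.4 CPM (SD, n = 4 each). Nsdhl (chrX:72918557-72958514, plus strand), the next enzyme of C4 demethylation, measured 13.9 and 14.3 CPM in 4 days RFP and 16.05 and 19.1 in 2 weeks RFP. In YFP it measured 20.6 and 25.4 CPM at 4 days and 21.7 and 37.6 at 2 weeks, and in Confetti 23.9 and 18.5. The RFP and YFP libraries did not overlap and the log2 fold change was -0.75 ± 0.20 (SE, adjusted p = 0.187); the gene is X-linked and the sex of the mice differed between replicates.

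Dhcr7 (chr7:143823145-143848410, plus strand), the last reductase of cholesterol synthesis, varied little among RFP libraries, at 8.02 and 8.89 CPM in 4 days RFP and 8.92 and 9.55 in 2 weeks RFP. YFP libraries measured 11.8 and 17.8 CPM at 4 days and 12.9 and 21.6 at 2 weeks, and Confetti 14.7 and 12.6. The log2 fold change was -0.88 ± 0.22 (SE, adjusted p = 0.187). All 4 RFP libraries lay below all 6 wildtype libraries.

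Over the whole branch the log2 fold changes lay between -1.24 and -0.37. From mevalonate synthesis, Hmgcs1, the HMG-CoA synthase, had a log2 fold change of -0.59 and the mevalonate kinase Mvk -0.52, while the next kinase Pmvk stood at -0.70 and the decarboxylase Mvd at -0.78. From the squalene steps, Fdft1 (squalene synthase), Sqle (squalene epoxidase) and Lss (lanosterol synthase) stood at -0.60, -0.72 and -0.73, and the lanosterol demethylase Cyp51 at -0.70. Hsd17b7, a late 3-ketosteroid reductase, and Sc5d, the sterol C5 desaturase, were the members of the branch that did not reach an unadjusted p of 0.05 in edgeR (-0.37 ± 0.28 and -0.41 ± 0.22, SE). Among the regulators, Srebf2 stood at -0.56 ± 0.20 and Stard4, a cytosolic sterol carrier, at -0.46 ± 0.19 (SE).

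Insig1 (chr5:28071363-28078662, plus strand), named here after its values were seen, had the largest standard error of the branch. It measured 135 and 212 CPM in 4 days RFP and 90.4 and 47.6 in 2 weeks RFP, but 251 and 279.7 in 2 weeks YFP after 161 and 322 in 4 days YFP. The Confetti libraries themselves differed, with 175 CPM in RFP and 346 in YFP. The RFP to YFP log2 fold change was -1.24 ± 0.41 (SE, adjusted p = 0.226), the lowest of the 18, and 4 days RFP 2 overlapped 4 days YFP 1.

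In the fatty acid branch the desaturases and the synthase carried the largest differences with no overlap. Scd1 (chr19:44394455-44407879, minus strand), the stearoyl-CoA desaturase that makes monounsaturated fatty acids, stood at 3275 and 3353 CPM in 4 days RFP and 2758 and 2161 in 2 weeks RFP. In YFP it stood at 4943 and 9561 CPM at 4 days and 6775 and 7770 at 2 weeks. Confetti held 3157 and 3001 CPM, so that the Confetti levels lay within the range of RFP and below all 4 YFP libraries. The means were 2887 ± 551 and 7262 ± 1928 CPM (SD, n = 4 each) and the log2 fold change -1.37 ± 0.26 (SE, adjusted p = 0.187). Its paralog Scd2 (chr19:44293674-44306864, plus strand) measured 298 and 208 CPM in 4 days RFP, 160.3 and 246 in 2 weeks RFP, 396 and 487 in 4 days YFP, 358 and 531 in 2 weeks YFP and 333 and 353 in Confetti. All 4 RFP libraries lay below all 6 wildtype libraries, and the log2 difference was -0.99 ± 0.25 (SE, adjusted p = 0.187). How reads that match both paralogs were counted was not examined.

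Fasn (chr11:120805846-120824547, minus strand), the fatty acid synthase, measured 391 and 345 CPM in 4 days RFP and 308 and 308 in 2 weeks RFP, against 519 and 897 in 4 days YFP, 653 and 866 in 2 weeks YFP and 602 and 611 in Confetti. The means were 338 ± 39.2 CPM in RFP and 734 ± 179 CPM in YFP (SD, n = 4 each), and their log2 difference -1.15 ± 0.23 (SE, adjusted p = 0.187). Every RFP library was below every wildtype library. Acaca (chr11:84129672-84401651, plus strand), the acetyl-CoA carboxylase that supplies malonyl-CoA, showed 71.8 and 41.8 CPM in 4 days RFP, 42.1 and 31.1 in 2 weeks RFP, 86.4 and 90.6 in 4 days YFP, 71.0 and 57.4 in 2 weeks YFP and 98.6 and 98.4 in Confetti. Here the Confetti libraries were the highest, and 4 days RFP 1 overlapped the YFP libraries of 2 weeks; the log2 fold change was -0.75 ± 0.21 (SE, adjusted p = 0.203). Srebf1 (chr11:60199089-60222581, minus strand), the SREBP gene most tied to lipogenesis, measured 64.9 and 49.8 CPM in 4 days RFP, 49.7 and 46.7 in 2 weeks RFP, 72.9 and 77.9 in 4 days YFP, 99.8 and 73.1 in 2 weeks YFP and 75.8 and 82.8 in Confetti. RFP and YFP did not overlap and the log2 fold change was -0.64 ± 0.19 (SE, adjusted p = 0.211).

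**Figure D2:**
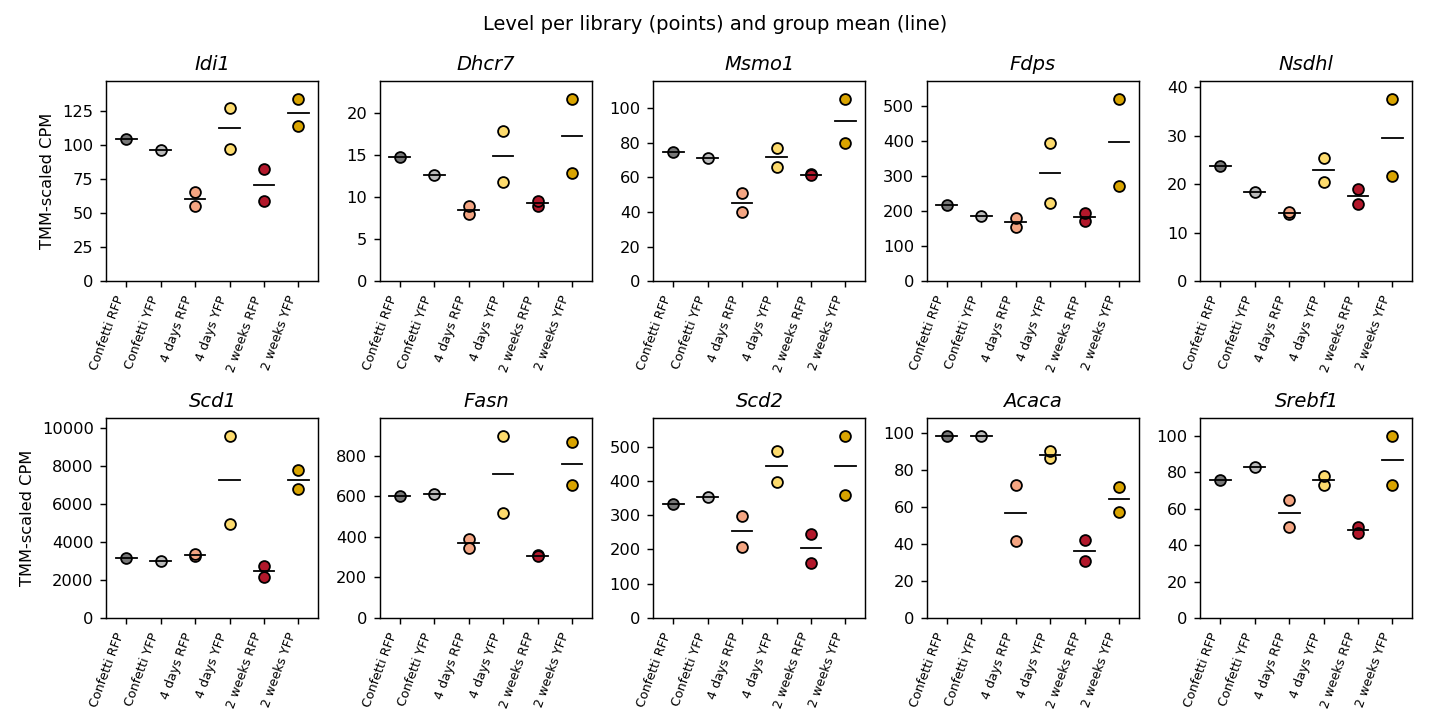
TMM-scaled CPM (vertical axis, from 0) of the 5 sterol genes (upper row) and 5 fatty acid genes (lower row) with the smallest unadjusted p in each branch, by group. Points are libraries and lines group means; the 2 points of 2 weeks RFP lie below both points of 2 weeks YFP in all 10 panels, and Scd1 in Confetti (3157 and 3001 CPM) sits with RFP, unlike Fasn or Acaca.

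Among the other fatty acid genes, Mfsd2a (chr4:122946850-122961188, minus strand), a transporter of lysophospholipids chosen after its values were seen, had the lowest log2 fold change of all 31, -1.49 ± 0.44 (SE, adjusted p = 0.213). It measured 13.05 and 32.8 CPM in 4 days RFP, 41.0 and 22.8 in 2 weeks RFP, 26.3 and 97.3 in 4 days YFP, 93.7 and 85.3 in 2 weeks YFP and 31.8 and 28.3 in Confetti. The low YFP library, 4 days YFP 1, overlapped RFP, yet each RFP library lay below the YFP library of its own time and number. With replicate number within time as a block, edgeR gave -1.44 at an adjusted p of 0.0332, and Mfsd2a was the 1 member that passed, with 0.685% of all genes called. Acly, which makes cytosolic acetyl-CoA, stood at -0.77, Acss2, which makes it from acetate, at -0.72, the elongase Elovl1 at -0.55 and the fatty acid binding protein Fabp5 at -0.68. Me1, the malic enzyme that supplies NADPH, did not separate the colours, with -0.09 ± 0.25 (SE), nor did the elongase Elovl5, with -0.22 ± 0.21 (SE). Elovl6, the elongase of palmitate, had 143 UMIs over all 10 libraries, against 975 to 925269 for the other 30 members, and no difference was detectable for it at this depth.

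The same difference was then read at each time. At 2 weeks, 29 members were lower in RFP than in YFP (50.5% of all genes), with medians of -0.74 in the sterol and -0.81 in the fatty acid branch and -0.01 over all 14855 genes. edgeR called no member at an adjusted p of 0.05 (0% of all genes in either direction), and 9 sterol and 6 fatty acid genes were lower at an unadjusted p under 0.05, against 5.47% of all genes. Both RFP libraries lay below both YFP libraries for 16 of 18 sterol and 10 of 13 fatty acid genes, against 22.5% of all genes, while both lay above for Me1 and Elovl6, as for 27.1% of all genes. Insig1 stood at -1.94 ± 0.46, Scd1 at -1.56 ± 0.39 and Fasn at -1.30 ± 0.34 (SE); these 3 passed in DESeq2, with 2.26% of its genes called. With every cell thinned to 2000 UMIs the medians at 2 weeks were -0.83 and -0.82, and without cells that held Cldn4 they were -0.61 and -0.40. Over all settings the sterol median lay between -0.89 and -0.45 and the fatty acid median between -0.97 and -0.40. Markers moved alongside: all 9 AT2 markers were lower in 2 weeks RFP (median -0.80). All 5 markers of the transitional state (median 2.38) and all 4 cycling markers (median 1.24) were higher. The airway secretory markers summed to 319.6 and 2149 CPM in 2 weeks RFP against 2156 and 17233 in 2 weeks YFP. The immune markers were also lower in 2 weeks RFP (11 of 11 tested, median -3.80), most of their UMIs being in 2 weeks YFP 2. Without that library 7 members had an unadjusted p under 0.05 and the sterol median was -0.45, without 2 weeks RFP 1 the count was 7 and without 2 weeks RFP 2 it was 4.

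At 4 days all 31 members were lower in RFP (53% of all genes), with medians of -0.56 and -0.64 and -0.03 over all genes. Immune markers went the other way, with 9 of 11 higher in RFP (median 1.52). Their sums were 26.9 and 637 CPM in 4 days RFP against 36.8 and 140.5 in 4 days YFP. All 9 AT2 markers were lower in RFP (median -0.54). All 5 markers of the transitional state (median 1.54) and all 4 cycling markers (median 0.28) were higher. For each of these 4 cycling markers, however, 4 days YFP 2 lay above both RFP libraries. The cycling sums were 125.5 and 163.5 CPM in 4 days RFP against 48.3 and 191.9 in 4 days YFP. In 4 days YFP 1, endothelial markers summed to 144.9 CPM and mesenchymal markers to 39.0, against 5.76 and 0.12 in 4 days YFP 2. The part of these markers in the result was not tested. No member passed in edgeR (0% of all genes in either direction) or DESeq2, and 4 sterol genes (Idi1, Cyp51, Msmo1 and Dhcr7) and 2 fatty acid genes (Fasn and Scd1) had an unadjusted p under 0.05, against 0.868% of all genes lower. Both RFP libraries lay below both YFP libraries for 12 sterol and 9 fatty acid genes, against 13.6% of all genes. The 2 same-number pairs differed: the median was -0.45 in the sterol and -0.26 in the fatty acid branch for replicate 1, and -0.78 and -1.07 for replicate 2, whose RFP library held the lowest sum of AT2 markers and whose YFP library held the highest. Without 4 days YFP 2 no member had an unadjusted p under 0.05 in edgeR and the medians were -0.25 and -0.35, without either 4 days RFP library the count was 3, and without 4 days YFP 1 it was 13. Across the settings the sterol median lay between -0.84 and -0.25 and the fatty acid median between -0.82 and -0.35. The change of the RFP to YFP difference from 4 days to 2 weeks had no member under an unadjusted p of 0.05 in edgeR (1.81% of all genes, 0% at an adjusted p) and none called in DESeq2; leaving out a library gave at most 1. The nearest was Insig1, at -1.46 ± 0.64 (SE).

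Confetti libraries gave a level for wildtype cells of lungs without mutant cells, and the next comparisons asked how each Red2Kras group stood to it; all share the same 2 Confetti libraries, in which Xist and Y-linked UMIs were those of female mice. In 2 weeks RFP, 14 of 18 sterol and 10 of 13 fatty acid genes were lower than in Confetti (49% of all genes), with medians of -0.27 and -0.30. With cells that held a Cldn4 UMI left out of every library the medians were -0.04 (10 of 18 lower) and 0.19 (5 of 13 lower), without Confetti RFP the fatty acid median was -0.09, and without 2 weeks RFP 1 the medians were -0.44 and -0.45. Under all settings run the sterol median lay between -0.44 and -0.04 and the fatty acid median between -0.45 and 0.19. Markers moved alongside: 8 of 9 AT2 markers were lower (median -0.73), all 5 markers of the transitional state (median 2.96) and all 4 cycling markers (median 1.05) were higher, and 8 of 11 immune markers were higher (median 0.52). edgeR called no member (0% of all genes lower and 0.0202% higher). The members with an unadjusted p under 0.05 were the regulators Srebf2 and Insig1 of the sterol branch and Acaca, Acly, Fasn and Srebf1 of the fatty acid branch, all lower, against 9.84% of all genes lower. Srebf2 measured 40.0 and 27.8 CPM in 2 weeks RFP and 77.7 and 97.2 in Confetti, which differ on the log2 scale by -1.36 ± 0.28 (SE, adjusted p = 0.0883). Acaca stood at -1.43 ± 0.32 and Acly, with 123 and 74.8 CPM against 244 and 285, at -1.41 ± 0.32 (SE, adjusted p = 0.0935 for both). Insig1 stood at -1.83 ± 0.46 (SE, adjusted p = 0.0971). Srebf2 was called in cells that held no UMI of 8 marker genes of other cell types (1.83% of all genes called) and with the replicate block (2.84%), and in DESeq2 together with Insig1, Acaca, Acly and Fasn (12.7% of its genes called). The other 16 sterol genes lay between -0.56 (Dhcr7) and 0.44 (Sc5d), and 12 of them were lower, among them Lss at -0.51 and Idi1 at -0.50.

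In 4 days RFP the median against Confetti was -0.48 in the sterol branch (17 of 18 lower) and -0.29 in the fatty acid branch (10 of 13 lower), where 49.8% of all genes were lower. In cells that held no UMI of 8 marker genes of other cell types these medians were -0.26 and -0.09 (8 of 13 lower), with the replicate block they were -0.66 and -0.45, and without 4 days RFP 1 the sterol median was -0.32. Over all settings the sterol median lay between -0.66 and -0.26 and the fatty acid median between -0.45 and -0.09. All 9 AT2 markers were lower (median -0.48), and all 5 markers of the transitional state (median 1.39), all 4 cycling markers (median 0.77) and 9 of 11 immune markers (median 2.29) were higher. No gene was called in edgeR (0% in either direction); Idi1, Msmo1, Pmvk and Srebf2 of the sterol branch and Acaca of the fatty acid branch were lower at an unadjusted p under 0.05, against 1.32% of all genes. Pmvk, the phosphomevalonate kinase, had the lowest value, -0.97 ± 0.30 (SE), with 183 and 138 CPM against 337 and 292 in Confetti. Without 4 days RFP 1 or Confetti RFP the count was 2, without Confetti YFP 3 and without 4 days RFP 2 it was 1. Among all settings run, the count of members with an unadjusted p under 0.05 reached at most 11. For Scd1 the difference was 0.11 ± 0.38 (SE).

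Wildtype YFP cells of Red2Kras lungs at 2 weeks lay above Confetti for 16 of 18 sterol and 11 of 13 fatty acid genes, with medians of 0.35 and 0.37 (49.6% of all genes lay below). Without 2 weeks YFP 2 the medians were 0.15 and 0.14, and with Ptprc-positive cells included they were 0.21 and 0.14 (5 of 13 lower). Among the settings the sterol median lay between 0.10 and 0.52 and the fatty acid median between 0.12 and 0.49. edgeR called no member (0.00673% of all genes called higher, 0% lower), and Cyp51, Mvd and Fdps and the fatty acid genes Scd1 and Mfsd2a were higher at an unadjusted p under 0.05, against 3.35% of all genes. Scd1 stood at 1.24 ± 0.39, Mfsd2a at 1.58 ± 0.67 and Mvd at 1.12 ± 0.44 (SE). Srebf2 (-0.60 ± 0.28) and Acaca (-0.62 ± 0.32) stood lower in 2 weeks YFP, as did Acly (-0.44 ± 0.32) and Hsd17b7 (-0.16 ± 0.43, SE), the 4 members whose YFP libraries were both below both Confetti libraries, as for 26.8% of all genes. In 4 days YFP the medians were 0.14 and 0.23, and Scd1 alone among the members had an unadjusted p under 0.05, at 1.24 ± 0.39 (SE), against 0.936% of all genes higher and 0% called in edgeR. Without 4 days YFP 2 these medians turned to -0.17 (15 of 18 lower) and -0.08 (7 of 13 lower), and with the replicate block the sterol median was -0.06 (12 lower). Across the settings the sterol median lay between -0.17 and 0.39 and the fatty acid median between -0.08 and 0.55. Scaling by library totals without TMM shifted the median of all genes in these comparisons to between -0.23 and -0.09, turned the sterol median of 4 days YFP to -0.07 and lowered those of 2 weeks YFP to 0.10 and 0.12. The summed level of the primed AT2 markers Lcn2 and Lrg1 was 8958 and 8514 CPM in 2 weeks YFP and 9531 in 4 days YFP 2, against 2373 in 4 days YFP 1 and 2758 and 2345 in Confetti. In 2 weeks YFP all 11 immune markers tested (median 4.33) and all 5 markers of the transitional state (median 0.58) were also higher than in Confetti; the part of these markers in the result was not tested. For 2 weeks YFP, leaving out 2 weeks YFP 2 left 0 members at an unadjusted p under 0.05 in edgeR, leaving out Confetti RFP or either 2 weeks RFP library left 2, Confetti YFP 1, and leaving out 2 weeks YFP 1 gave 8. For 4 days YFP the count was 0 without 4 days YFP 2 and 3 without 4 days YFP 1. No member passed in DESeq2 in the comparisons of 4 days RFP, 4 days YFP or 2 weeks YFP with Confetti.

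**Figure D3:**
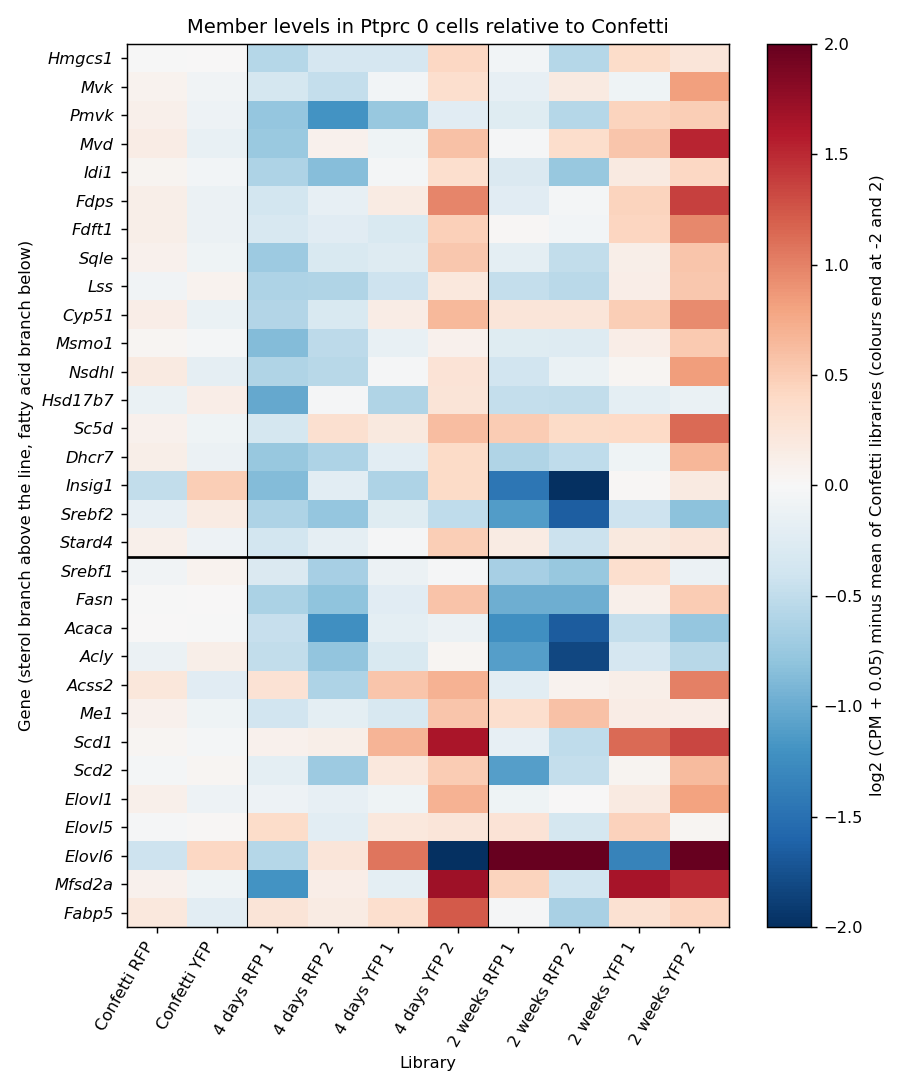
Each cell shows log2(CPM + 0.05) of 1 member (rows, sterol branch above the thick line) in 1 library (columns) minus the mean of the 2 Confetti libraries, blue for lower and red for higher; colours end at -2 and 2. The 2 libraries of 2 weeks RFP are blue in the rows of Insig1, Srebf2, Fasn, Acaca and Acly, and the replicate 2 libraries of YFP are red in most rows; Elovl6 rests on 143 UMIs.

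Between the times, RFP cells at 2 weeks stood above those at 4 days in 15 of 18 sterol genes (median 0.20) and below in 8 of 13 fatty acid genes (median -0.25), with -0.02 over all genes and 51.3% of all genes below. Without 4 days RFP 1 the medians were 0.09 and -0.04, and without 4 days RFP 2 they were 0.33 and -0.37. The sterol median was 0.09 (8 of 18 below) with cells thinned to 2000 UMIs and 0.06 (7 below) without cells that held Mki67 or Top2a, and the fatty acid median was 0.02 without cells that held Cldn4. Under all settings run the sterol median lay between 0.06 and 0.33 and the fatty acid median between -0.37 and 0.02. All 5 markers of the transitional state (median 0.86) and all 4 cycling markers (median 0.28) were higher at 2 weeks, and 7 of 9 AT2 markers (median -0.44) and 9 of 11 immune markers (median -1.17) lower. The cycling sums overlapped, at 244.3 and 105.4 CPM in 2 weeks RFP against 125.5 and 163.5 in 4 days RFP. No gene was called in edgeR (0% in either direction) and no member in DESeq2. At an unadjusted p under 0.05 the regulators Insig1 (-1.33 ± 0.46) and Srebf2 (-0.67 ± 0.28) and the fatty acid gene Acly (-0.78 ± 0.32, SE) were lower at 2 weeks, against 3.53% of all genes. Cyp51 (0.68 ± 0.27) and Me1 (0.75 ± 0.32, SE) were higher, against 5.19%. Without 2 weeks RFP 2 no member was counted, without either 4 days RFP library 1 was, and without 2 weeks RFP 1 or either 2 weeks YFP library 3 were. In YFP cells too, 15 of 18 sterol genes stood above at 2 weeks, with medians of 0.29 in the sterol and 0.01 in the fatty acid branch, -0.02 over all genes and 52.1% of all genes below. All 11 immune markers (median 3.00) and all 5 of the transitional state (median 0.73) were higher at 2 weeks, and all 4 cycling markers (median -0.69) and 7 of 9 AT2 markers (median -0.17) lower. The cycling sums overlapped here too, at 87.7 and 58.8 CPM in 2 weeks YFP against 48.3 and 191.9 in 4 days YFP. Without 2 weeks YFP 2 the members' medians were -0.01 and -0.19, without 4 days YFP 1 0.04 and -0.17, and without 4 days YFP 2 0.59 and 0.16. Pmvk alone had an unadjusted p under 0.05, higher at 2 weeks by 0.94 ± 0.30 (SE, 0.99% of all genes higher, 0% called), with 3 members so counted without 4 days YFP 2, none without 4 days YFP 1 or 2 weeks YFP 2, and none called in DESeq2.

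Summed over its members, the sterol branch took 875 and 976 CPM in 4 days RFP and 1052 and 905 in 2 weeks RFP. The YFP sums were 1116 and 1728 at 4 days and 1635 and 2081 at 2 weeks, and the Confetti sums 1350 and 1423. All 4 RFP libraries lay below all 6 wildtype ones. The fatty acid sum was 7473 and 7159 CPM in 4 days RFP, 6345 and 5277 in 2 weeks RFP, 11750.2 and 13899 in 2 weeks YFP and, with the widest gap between replicates, 9527 and 17352 in 4 days YFP. The Confetti sums of 7816 and 7076 bracketed those of 4 days RFP. Scd1, Fabp5 and Elovl1 held most of the fatty acid sum, with 3275, 1938 and 1066 of the 7473 CPM in 4 days RFP 1. The sum therefore says little of the other members. Sums of AT2 markers moved alongside: 111036 and 95255 CPM in 2 weeks RFP against 187965 and 221416 in 2 weeks YFP, but 184723 and 89182 in 4 days RFP against 187790 and 224466 in 4 days YFP. Over both times, all 9 AT2 markers were lower in RFP, 4 of which had an unadjusted p under 0.05 (median -0.67), and all 5 markers of the transitional state were higher at that p. In sums over cells, fewer cells of a type and less RNA per cell cannot be told apart.

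**Figure D4:**
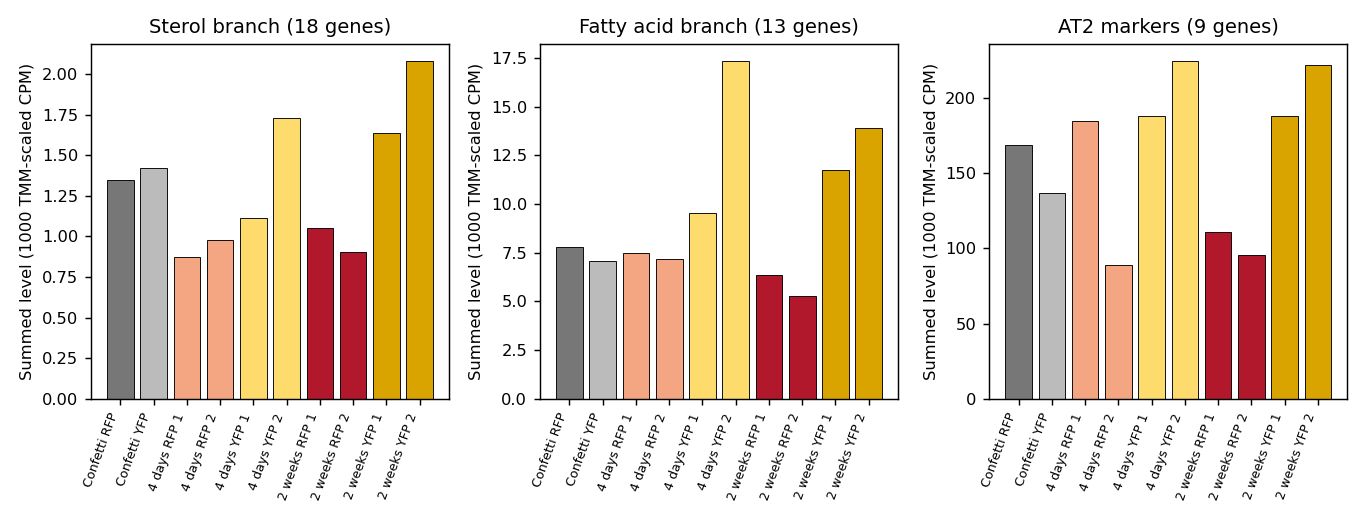
Bars are the summed TMM-scaled CPM (in units of 1000, from 0) of the sterol branch, the fatty acid branch and 9 AT2 markers in each of the 10 libraries. The sterol sums of RFP lie between 875 and 1052 CPM, below all other libraries, while the AT2 sum of 4 days RFP 1 (184723 CPM) is close to those of YFP.

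Members were then compared within RFP libraries between cells with at least 1 UMI of Cldn4 and cells with none, each cell thinned to 2000 UMIs; this is a description, since cells of 1 library are not replicates. Cells with Cldn4 numbered 54 and 278 in the 4 days RFP libraries and 574 and 710 in those of 2 weeks RFP, and the other 6 libraries had under 50. The median differences of cells with Cldn4 from cells without, in the fatty acid branch with Elovl6 left out, were -1.22, -1.77, -1.54 and -1.67 (log2) in 4 days RFP 1 and 2 and 2 weeks RFP 1 and 2. In the same order, 10, 11, 12 and 12 of 12 fatty acid genes were lower in cells with Cldn4, against 41.9%, 40.6%, 43.6% and 42.6% of all genes with at least as many UMIs in the library as the least counted of these members. The median differences of the sterol branch were -0.19, -0.52, -0.45 and -0.86, with 9, 14, 15 and 15 of 18 genes lower, so that 4 days RFP 1, with its 54 cells, was evenly split. Those of the AT2 markers were -0.85, -3.11, -1.98 and -1.96. Without thinning, the fatty acid medians were -1.004, -1.92, -1.09 and -1.33 and the sterol medians -0.44, -0.65, -0.27 and -0.50 in the same order, and 2 weeks YFP 1 and 2, with 66 and 50 such cells, gave -1.56 and -1.89 for the fatty acid and -1.16 and -1.55 for the sterol branch. Cells with a Cldn4 UMI were deeper before thinning in all 6, with medians from 6234 to 20115 UMIs against 4538 to 13793. When cells with Cldn4 were left out of every library, the medians over both times in RFP against YFP were -0.58 in the sterol and -0.40 in the fatty acid branch, and 29 of 31 members were lower.

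**Figure D5:**
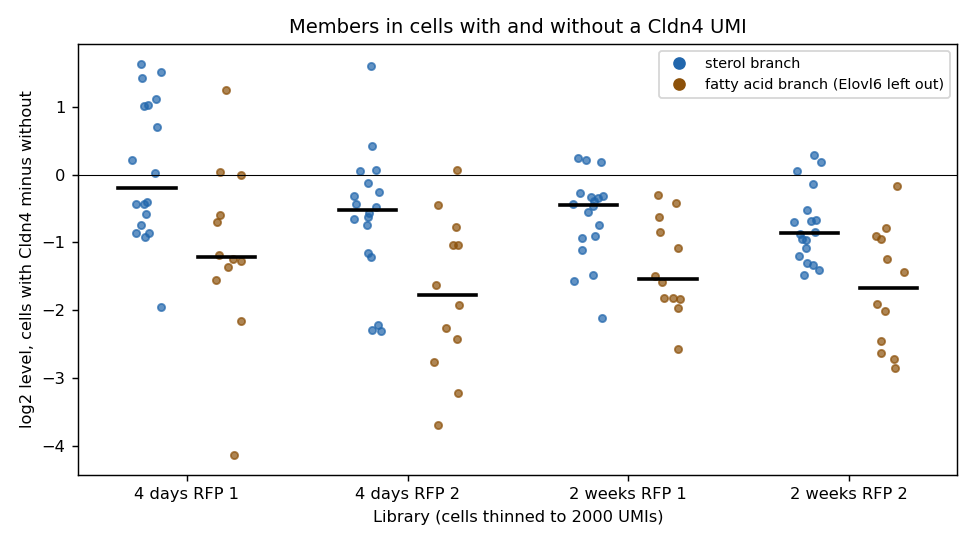
Each point is 1 member in 1 RFP library: the log2 level in cells with a Cldn4 UMI minus that in cells without, all cells thinned to 2000 UMIs, and black bars are medians. The fatty acid medians (-1.22 to -1.77) lie below the sterol medians (-0.19 to -0.86) in every library.

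The members were also read in the cells with a Ptprc UMI, which made up 0.964% to 34.8% of the cells that passed, with 34.8% in 2 weeks YFP 2 and 19.8% in 2 weeks RFP 2. Scaled by library totals, the median level over the 10 libraries of Fasn was 589 against 84.4 CPM in cells without and with Ptprc, that of Scd1 3421 against 653 and that of Me1 112 against 17.2, and all 3 were lower with Ptprc in all 10 libraries. Mvd (19.1 against 45.0) and Elovl6 (0.253 against 7.42) were higher with Ptprc in all 10, and Dhcr7 (12.6 against 23.1) in 8 of 10. With Ptprc-positive cells included, or with cells that held no UMI of 7 marker genes of other cell types, no member was called over both times and the medians of the 31 were -0.62 and -0.76.

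Other genes of sterol and fatty acid metabolism were counted from lists of 20 further sterol genes (19 tested) and 32 further fatty acid genes (30 tested). These lists reach beyond synthesis. The first includes genes of sterol transport and storage, such as Abca1, Npc2 and Soat1. The second includes genes of fatty acid oxidation and lipid storage, such as Cpt1a, Acadm and Plin2. Their medians are therefore not those of synthesis genes alone. In RFP against YFP over both times, 9 further sterol genes were lower and none higher at an unadjusted p under 0.05 in edgeR, and 8 further fatty acid genes were lower and 1 higher, against 7.2% of all genes lower and 8.53% higher, with none past an adjusted p of 0.05. The medians were -0.73 in the first list, beside -0.70 in the 18 sterol members, and -0.30 in the second list, beside -0.72 in the 13 fatty acid members and -0.04 over all genes.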

How the data were processed

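Single-cell RNA-seq of 10 libraries was read from the deposited gene by barcode tables, whose values are raw UMI counts that the authors made with Cell Ranger on GRCm38 (version 3.1.0 per the labels' processing notes, 5.0.1 per the file headers); nothing had been normalised. Cells were kept with at least 1000 genes, at most 50000 UMIs and at most 15% mitochondrial UMIs, as in the study's methods, and only those with 0 Ptprc UMIs were used. Doublets were not called. Mitochondrial genes and genes in fewer than 3 cells were dropped, which left 19580 genes, and counts were summed per library. edgeR 4.0.16 (R 4.3.3) fitted a quasi-likelihood model with TMM factors after its filter on low counts, over 6 groups and 10 libraries, or, for RFP against YFP over both times, over the 8 Red2Kras libraries with a term for time. P-values were adjusted by Benjamini-Hochberg across every gene in the fit and called under 0.05, and levels are TMM-scaled CPM. Standard errors of edgeR fold changes were derived as the absolute log2 fold change divided by the square root of its F statistic. All 31 members passed the low-count filter, and Elovl6 rests on 143 UMIs. The script was tested on simulated data. DESeq2 1.42.0 and the other settings are given in the closing section. Values in every library are given for members that passed a comparison or, as none did, for the 5 of each branch with the smallest unadjusted p over both times; Insig1, Mfsd2a and others named beside them were chosen after their values were seen. The members and gene lists were chosen with earlier results of these data known. No label says that RFP and YFP libraries of the same number share lungs, and the main edgeR test held no term for such pairs. Across 14855 genes the difference of replicate 1 and 2 in RFP correlated with that in YFP at r = 0.45 at 4 days and 0.57 at 2 weeks. Across times the correlations ran from 0.09 to 0.48, the highest between 4 days RFP and 2 weeks YFP. These values therefore cannot decide whether libraries were paired within a time. Gene positions are from the GENCODE annotation of GRCm38, and promoters from RefSeq.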

Additional observations from a re-analysis of the deposited data

How the results depend on the processing

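Over the 10 comparisons, 214 recounts were made under other settings and 207 of them gave the same count of members past an adjusted p of 0.05 as the edgeR test, 0. DESeq2 called 15 members in RFP against YFP over both times, 3 at 2 weeks and 5 in 2 weeks RFP against Confetti. In that last comparison Srebf2 alone was called with the replicate block (1 member) and in cells with no UMI of 8 markers of other cell types (1 member), a setting that kept 30.9% to 66.8% of cells, while the same setting without Scgb1a1, chosen after seeing the data, kept 86.5% to 97.0% and called 3 (Srebf2, Acaca and Acly, with 2.92% of all genes called). The replicate block within time called 1 member over both times (Mfsd2a) and changed no other call; the block by number changed no call in the other comparisons. Leaving out each library in turn called 0 members in every comparison, and over both times 18 to 26 members at an unadjusted p under 0.05 (26 with all libraries). The median log2 fold change of the 31 over both times lay between -0.79 and -0.57 under all settings, and between -0.88 and -0.47 at 2 weeks. By branch, the sterol median over both times lay between -0.79 and -0.57. The fatty acid median lay between -0.86 (without 4 days RFP 1) and -0.40 (without cells that held Cldn4). Scaling by library totals without TMM moved the median of all genes over both times from -0.04 to 0.07 and left 18 sterol and 11 fatty acid genes lower. None of the 70 results of single members with an unadjusted p under 0.05 passed an adjusted p of 0.05 in edgeR, and of their 1517 values under other settings 29 did and none changed direction. At the unadjusted threshold the counts moved more, from 4 to 21 members at 2 weeks and from 0 to 13 at 4 days. The share of all genes at that threshold under each setting is not given here. These counts, and those above with a library left out, therefore cannot tell a move of the members from a move of all genes. Low counts limit Elovl6, and with 2 libraries in each group of Red2Kras single comparisons rest on few libraries. The causes of these differences were not tested.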
